A study of Mus musculus with 2 samples.

Results

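The Sd6 spermatids were the 854 cells of 12408 that the deposited cell table assigns to the cluster Sd6, which the authors placed between Sd5 and Sd7 in their order of spermatid clusters from early to late. They were 404 of the 5170 WT cells (7.81%, exact binomial 95% interval 7.10 to 8.58) and 450 of the 7238 KO cells (6.22%, 5.67 to 6.80). WT stands for adult C57BL/6 mice (C57BL/6N in the methods of the study) and KO for Tex13a-knocked-out mice of the same strain, in which CRISPR/Cas9 had removed every exon of the X-linked gene Tex13a. The mice were 10 to 12 weeks old, and for each genotype 3 testes of 3 mice were pooled and digested with collagenase I, so that each genotype is 1 scRNA-seq library. Cells of a pool are not replicates of a condition. No comparison therefore has a test, WT and KO were kept apart throughout, and every interval covers counting error only, not the spread between mice or cell suspensions. Because the clusters were built from the expression of these same cells, the differences between Sd6 and its neighbours describe the cluster and do not test it.

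Spermatids are the haploid cells that turn into sperm without dividing again. Round spermatids build the acrosome, the vesicle of enzymes that caps the nucleus, and start the flagellum. As they elongate, the histones of the nucleus give way to transition proteins and then to protamines, transcription shuts down, and many mRNAs are kept silent in particles with RNA-binding proteins until they are translated. A change in an mRNA level at this time can come from synthesis or from decay, which UMI counts do not tell apart.

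Sd6 held 2882055 UMIs in WT and 3029417 in KO. A cell of Sd6_WT had a median of 5671.5 UMIs and 1618 genes, and one of Sd6_KO 5490 UMIs and 1622.5 genes. Sd5 cells were deeper, at 7633 and 7426 UMIs, and Sd7 cells were close to Sd6, at 5870.5 and 5673. With every cell thinned to 3000 UMIs, the median number of genes still went down from 1269 (WT) and 1279 (KO) in Sd5 to 1116 and 1126.5 in Sd6 and 1018 and 1033 in Sd7, and no cell was too shallow to be thinned. No barcode was shared by the libraries. Levels are given as CPM, the UMIs of a gene after the sum of that cluster and library was scaled to 1000000, and are shares of the RNA read, not amounts per cell. Of the 25065 gene symbols, 5476 could be tied to 1 row of the matrix, and these took 92.1% of the Sd6 UMIs in WT and 92.2% in KO. The 10 genes with most UMIs in Sd6 (Prm1, Tnp1, Prm2, Tnp2, Smcp, Hmgb4, Oaz3, Meig1, Ldhc and Dbil5) held 24.9% of them in WT and 24.7% in KO.

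The knocked-out gene itself could be tied only to 7 candidate rows. The third of them had 184 UMIs in Sd6_WT (63.8 CPM, exact Poisson 95% interval 55.0 to 73.8) and none in Sd6_KO, where 3 counts would be 0.990 CPM. That row was picked because it was empty in KO, so it checks nothing about the library labels. In WT its level in Sd6 lay between that of Sd5 (56.9 CPM) and that of Sd7 (87.7 CPM).

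Cdyl (ENSMUSG00000059288.14, GRCm38 chromosome 13, 35659833 to 35874063, plus strand), a chromodomain protein that represses transcription, is named as a marker of Sd6 by the study or descriptions of its clusters. It was read at 842 CPM in Sd6_WT (exact Poisson 95% interval 809 to 876) and 883 CPM in Sd6_KO (850 to 917). Against Sd5 this level hardly differed, with log2 ratios of 0.01 in WT and -0.11 in KO. Against Sd7 it was 3.16-fold higher in WT and 3.08-fold higher in KO. Cdyl marks the boundary after Sd6, not the one before it: the transcript was already at 838 and 955 CPM in Sd5, up from 44.7 and 47.2 CPM in Sd3, and was at 48.5 and 67.8 CPM by Sd8. After thinning to 3000 UMIs, a Cdyl UMI was found in 88.1% of Sd6_WT cells (84.6 to 91.1) and 90.9% of Sd6_KO cells (87.8 to 93.4), against 86.9% and 91.0% in Sd5 and 44.4% and 48.5% in Sd7. Sd4 already had it in 65.4% and 73.3% of cells, more than Sd7. In Sd1, an early cluster with a median of 7196 and 8647 UMIs per cell before thinning, it was found in 2.34% and 1.89% of cells, which served as the background for free RNA. This is near the lowest of all clusters. The share was 2.18% and 4.24% in Sd2, 4.35% and 5.76% in Sd10, 6.92% and 9.09% in Sc1 and 21.0% and 22.3% in Sg. Per cell, the mean was 6.00 Cdyl UMIs in Sd6_WT and 5.94 in Sd6_KO, below the 7.95 and 8.76 of the deeper Sd5 cells.

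Against Sd5, far more genes were lower in Sd6 than higher. Among 4352 genes with at least 10 UMIs over Sd5 and Sd6, 514 (11.8%) were at least 2-fold lower in Sd6 than in Sd5 in both libraries and 14 (0.322%) at least 2-fold higher. The median log2 ratio of Sd6 to Sd5 over all of them was -0.15 in WT and -0.12 in KO, and with ratios centred on that median 422 were lower and 17 higher. Of the 514 genes, 423 had their highest level in a cluster before Sd5 and 79 in Sd5 itself, in both libraries. Sd5 cells carry more UMIs, so in UMIs per cell the number lower in Sd6 was 949 and the number higher 3. Among the 2769 genes with 100 or more UMIs over the pair of clusters in each library, 355 were lower and 0 higher.

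The step from Sd6 to Sd7 was smaller and of the same direction. Of 4355 genes, 242 (5.56%) were at least 2-fold higher in Sd6 than in Sd7 in both libraries and 3 (0.0689%) at least 2-fold lower. The 3 that were lower, 4930594C11Rik, Igha and Mtmr3, had at most 2 UMIs in Sd6 in either library. The median log2 ratio of Sd6 to Sd7 over all genes was 0.21 in WT and 0.16 in KO, and 158 genes were higher and 6 lower after centring. UMIs per cell gave 230 and 3. Sd6 was thus set apart from Sd5 mainly by genes with lower shares and from Sd7 mainly by genes with higher shares.

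Genes were sorted by their ratios to both neighbours. A stepwise loss, at least 2-fold lower than Sd5 and at least 2-fold higher than Sd7 in both libraries, was seen for 103 genes. Another 59 were held, within 1.5-fold of Sd5, and then lost by Sd7. Held is meant in CPM, and since Sd5 cells were deeper, such a gene could be lower in UMIs per cell. Cdyl of this class had 7.95 and 8.76 UMIs per cell in Sd5 and 6.00 and 5.94 in Sd6. Only 79 genes (1.8% of 4378) had their highest CPM of all 13 clusters in Sd6 in both libraries. Of the 79, 23 lay above both Sd5 and Sd7 beyond counting error in both libraries, and 0 were 2-fold above both neighbours. In UMIs per cell 2 genes were highest in Sd6. The stepwise and held classes rest on Sd5, Sd6 and Sd7 sums alone, and the class highest in Sd6 on the sums of all 13 clusters. None of them says how fast a transcript was lost.

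**Figure D1:**
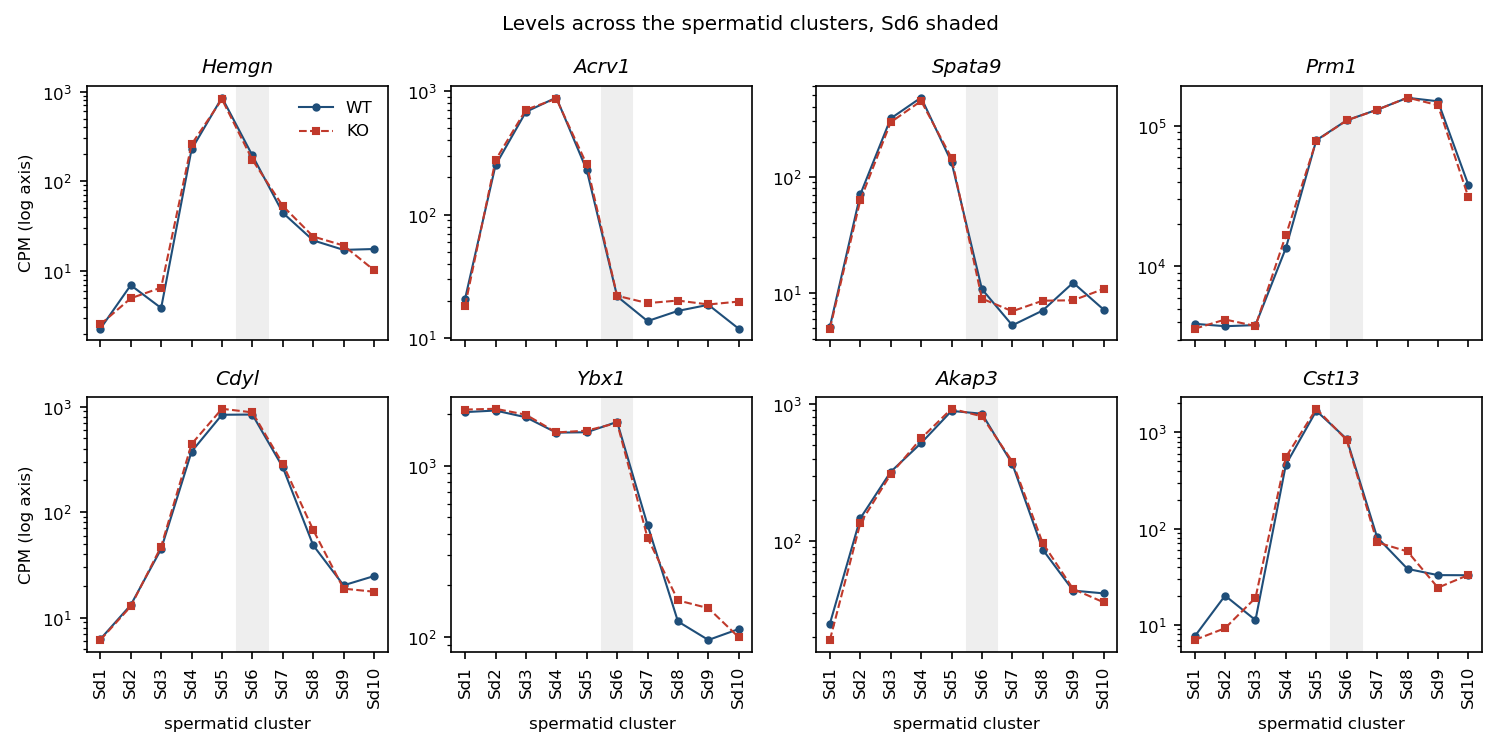
CPM on a log axis of 8 genes in the clusters Sd1 to Sd10, with lines for the WT and KO library and Sd6 shaded. Hemgn, Acrv1 and Spata9 are past their peak when Sd6 is reached, Cdyl, Ybx1, Akap3 and Cst13 drop between Sd6 and Sd8, and Prm1 is still rising in Sd6.

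Nup43, a nuclear pore subunit, had the lowest ratio of Sd6 to Sd5 among genes with at least 100 UMIs, at 55.5 CPM in Sd5_WT and 51.4 in Sd5_KO against 3.12 and 2.97 CPM in Sd6, where 9 UMIs remained in each library. Spata9 followed, at 133 and 145 CPM in Sd5 and 10.8 and 8.91 CPM in Sd6. Acrv1, a protein of the acrosomal vesicle, went from 230 and 255 CPM to 21.9 and 22.1 CPM, a log2 ratio of -3.38 in WT and -3.52 in KO. Its level was highest in Sd4, at 885 and 866 CPM. Pex5l, a relative of the peroxisomal import receptor, had its highest level in Sd5 (725 CPM in each library) and was 11.8-fold and 11.6-fold lower in Sd6. Arf4, a small GTPase of vesicle transport, stood at 619 and 654 CPM in Sd5 and at 52.7 and 69.0 CPM in Sd6. Gm7073, 4930557F10Rik, Dcdc2c, Eqtn and Efcab9 completed the 10 lowest ratios, each between 8.64-fold and 11.5-fold lower in Sd6 than in Sd5.

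Of 40 acrosome genes read, 16 were at least 2-fold lower in Sd6 than in Sd5 and 0 higher, against 11.8% of all genes lower. Their median log2 ratio was -0.80 in WT and -0.87 in KO, against -0.15 and -0.12 over all genes. Fam209, needed for acrosome formation, was at 389 CPM in Sd5_WT and 410 in Sd5_KO, and at 35.0 and 49.8 CPM in Sd6. Spaca3, a lysozyme-like acrosomal protein, was at 254 and 287 CPM in Sd5 and at 39.6 and 48.2 CPM in Sd6, and the trypsin inhibitor Spink2 was at 565 and 595 CPM in Sd5 and 195 and 197 CPM in Sd6. The rest of the 16 were Acr, Spaca1, Spaca4, Zpbp, Acrv1, Eqtn, Lyzl1, Lyzl6, Zp3r, Tmem190, Dkkl1, Clgn and Calr3. Some acrosome genes had a further step down after Sd6. Calr3, a chaperone of sperm surface proteins, peaked in Sd5 at 817 and 773 CPM, kept 336 and 310 CPM in Sd6 and had 110 and 111 CPM in Sd7. Hyal5, a sperm hyaluronidase, was at 36.4 and 30.7 CPM in Sd6 and at 7.97 and 8.13 CPM in Sd7. With Fam209 these were the 3 of 40 acrosome genes at least 2-fold higher in Sd6 than in Sd7, against 5.56% of all genes. Prss55, Fam71f1 and Tmco5 of the same list had their highest level in Sd6 in both libraries. Prss55, a membrane-anchored serine protease, was at 574 and 576 CPM in Sd5, 669 and 676 CPM in Sd6 and 540 and 548 CPM in Sd7.

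Of 61 axoneme genes of the flagellum, 11 were at least 2-fold lower in Sd6 than in Sd5 (11.8% of all genes were), with a median log2 ratio of -0.61 in WT and -0.40 in KO against -0.15 and -0.12 over all genes, and 2 were higher than in Sd7 (5.56% of all genes were). The 11 were dynein subunits (Dnah3, Dnah7b, Dynlrb2), tektins (Tekt2, Tekt4), radial spoke heads (Rsph6a, Rsph9, Rsph14) and Iqcd, Ak8 and Spag6. Tekt2 stood at 72.6 CPM in Sd5_WT, 96.4 in Sd5_KO, 25.7 in Sd6_WT and 32.3 in Sd6_KO, after 977 and 986 CPM in Sd3. Of 21 outer dense fibre and fibrous sheath genes, 1 was lower, 3 were higher than in Sd7, and the median log2 ratio to Sd5 was 0.14 and 0.16. The 1 lower gene, Ropn1l, a fibrous sheath partner of protein kinase anchors, was lost stepwise, at 3052 and 3072 CPM in Sd5, 1202 and 1226 CPM in Sd6 and 313 and 341 CPM in Sd7. Akap3, a scaffold of the fibrous sheath, was held at 849 CPM in Sd6_WT and 813 in Sd6_KO (890 and 923 in Sd5) and was lower in Sd7, at 366 and 380 CPM. Odf3 had 482 and 480 CPM in Sd5, 284 and 268 CPM in Sd6 and 92 and 94.8 CPM in Sd7. Odf2, a core protein of the outer dense fibres, went the other way, from 1563 and 1661 CPM in Sd5 to 1935 and 2019 CPM in Sd6 and 2178 and 2299 CPM in Sd7. The difference between the axoneme list and the dense fibre list was not tested.

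Among 23 midpiece and mitochondrial sheath genes, 7 were lower in Sd6 than in Sd5 (Gk2, Slirp, Vdac2, Cox6b2, Pdha2, Dnajb13 and Nme5) and 3 higher than in Sd7 (Vdac3, Tssk4 and Dnajb13), against 11.8% and 5.56% of all genes. Vdac2 and Vdac3 encode related channels of the outer mitochondrial membrane. Vdac2 was at 71.5 and 72.1 CPM in Sd5 and 27.1 and 31.4 CPM in Sd6, whereas Vdac3 was held at 106 and 88.8 CPM in Sd6 (135 and 127 in Sd5) and had 29.2 and 26.1 CPM in Sd7. Per cell Vdac3 was lower in Sd6, with 305 and 269 UMIs in 404 and 450 cells. Sd5 had 370 and 413 Vdac3 UMIs in 289 and 354 cells. In the head, 3 of 15 perinuclear theca and actin-like genes were lower than in Sd5, beside the same 11.8% of all genes. Actl7b was at 388 and 403 CPM in Sd5 and 55.5 and 64.7 CPM in Sd6. Ccin (calicin) and Actrt3 were lost in steps, Actrt3 from 643 and 623 CPM in Sd5 through 277 and 251 CPM in Sd6 to 44.3 and 42.7 CPM in Sd7. Cylc1, a cylicin of the same structure, was highest in Sd6, at 750 and 660 CPM, against 688 and 600 CPM in Sd5 and 578 and 549 CPM in Sd7.

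**Figure D2:**
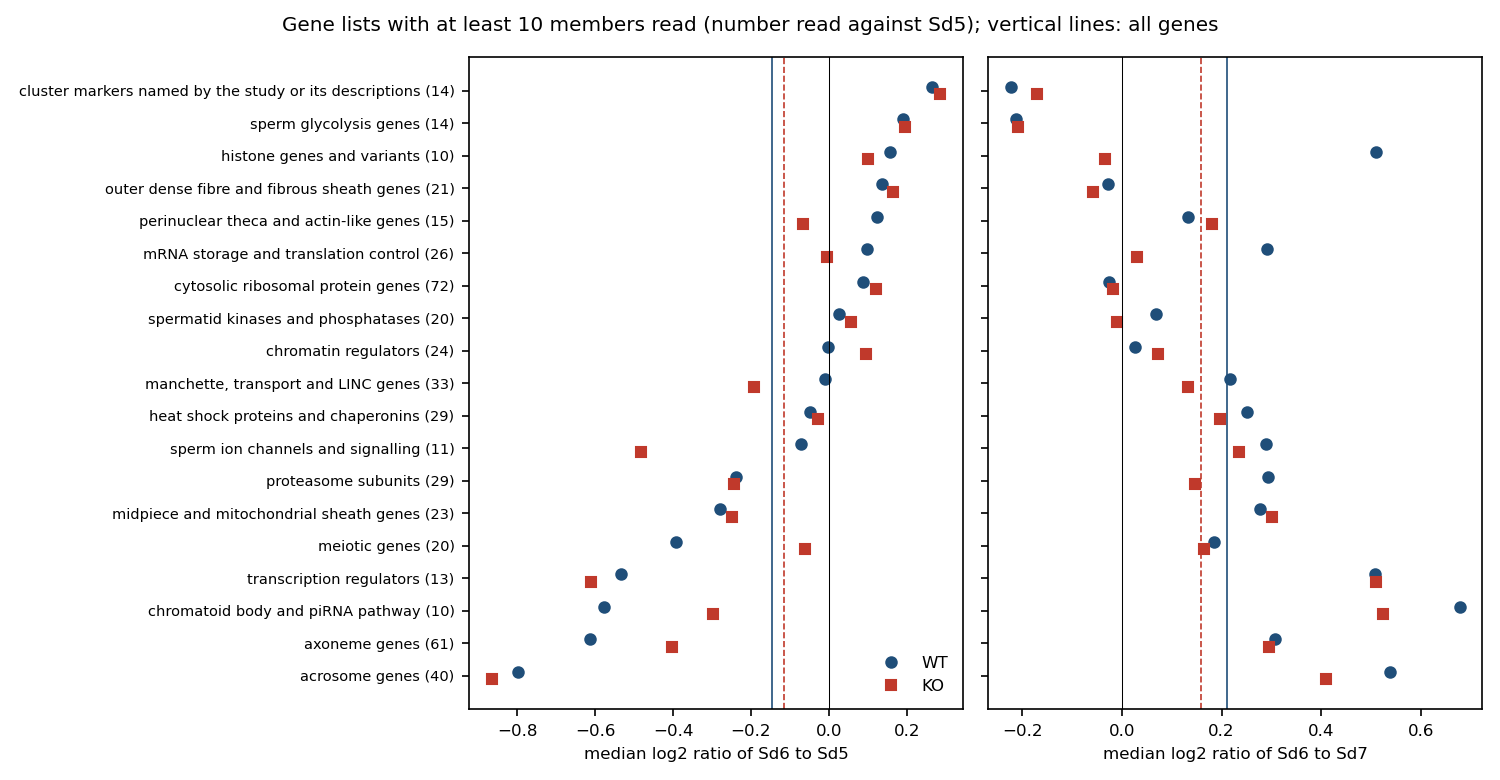
Median log2 ratio of Sd6 to Sd5 (left) and of Sd6 to Sd7 (right) for each gene list with at least 10 members read, with 1 marker per library and vertical lines at the medians of all genes. The acrosome list lies farthest to the left against Sd5, at -0.80 and -0.87, and the sperm glycolysis and dense fibre lists lie to the right of the lines, at 0.14 to 0.20.

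Of 26 mRNA storage and translation control genes, 4 were at least 2-fold lower in Sd6 than in Sd5 (Ddx25, Pabpc1, Cpeb2 and Ythdc1), and 2, the Y-box genes Ybx1 and Ybx3, were higher than in Sd7. Over all genes these shares were 11.8% and 5.56%, so neither count sets the list apart. Pabpc1, the cytoplasmic poly(A)-binding protein, was at 1900 CPM in Sd5_WT, 1793 in Sd5_KO, 331 in Sd6_WT and 380 in Sd6_KO, and stayed near that level in Sd7 (261 and 321). Ddx25, a helicase that exports and stores spermatid mRNAs, was at 171 and 181 CPM in Sd5 and 78.8 and 65.7 CPM in Sd6. Ybx1 had the opposite course. Its Sd6 level of 1802 CPM in WT (exact Poisson 95% interval 1754 to 1852) and 1776 CPM in KO (1729 to 1824) was above that of Sd5 (1568 and 1602) and was followed by 450 and 379 CPM in Sd7, a 4-fold difference in WT and 4.69-fold in KO. In UMIs per cell Ybx1 was slightly lower in Sd6 (12.9 and 12) than in Sd5 (14.9 and 14.7). Ybx3 was at 479 and 529 CPM in Sd5, 585 and 625 CPM in Sd6 and 289 and 294 CPM in Sd7. Both Y-box genes were highest in Sc2, the later spermatocytes, and had a lower level in Sd7 than in any of Sd3 to Sd6. Of 6 deadenylation factors read, Tob1 and Cnot6 were higher than in Sd7, Cnot6 with at most 13 UMIs in Sd6, and Tob1, which brings the CCR4-NOT deadenylase to mRNAs, was lost in steps from 120 and 100 CPM in Sd5 to 38.5 and 45.9 CPM in Sd6 and 17.3 and 14.9 CPM in Sd7. Gtsf1 was the 1 of 10 chromatoid body and piRNA pathway genes lower than in Sd5, at 1580 and 1562 CPM in Sd5 and 639 and 648 CPM in Sd6.

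Of 13 transcription regulators, 2 were lower than in Sd5 and 2 higher than in Sd7, beside 11.8% and 5.56% of all genes. Their median log2 ratio to Sd5 was -0.53 in WT and -0.61 in KO, against -0.15 and -0.12 over all genes. Gtf2a1l, the germ cell form of a TFIIA subunit, was in both groups, at 250 and 248 CPM in Sd5, 124 and 111 CPM in Sd6 and 20.03 and 24.2 CPM in Sd7. Fhl5, a co-activator of the spermatid factor CREM, had its highest level in Sd5 (1453 and 1349 CPM) and was at 686 and 659 CPM in Sd6. Sox30, a transcription factor of round spermatids, was at 110 and 104 CPM in Sd6 and 47.4 and 47.9 CPM in Sd7. The 5 RNA polymerase II subunits read had only 223 and 214 UMIs in Sd6 together, and their median log2 ratios to Sd5 were -0.92 in WT and 0.09 in KO. Their sum was lower in Sd6 than in Sd5 in both libraries, at 77.4 CPM (67.6 to 88.2) against 136 (122 to 150) in WT and 70.6 CPM (61.5 to 80.8) against 119 (108 to 132) in KO, and most of it was Polr2i, with 179 and 185 UMIs in Sd6. The other 4 subunits had at most 18 UMIs each in either library, too few to give a direction.

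Genes of nuclear condensation took a share in Sd6 between those of Sd5 and Sd7. The 5 transition protein and protamine genes took 21.2% of the UMIs of Sd6_WT and 20.9% of Sd6_KO, between Sd5 (15.7% and 15.4%) and Sd7 (25.1% and 24.7%). Tnp1 went from 30923 and 29234 CPM in Sd5 to 41682 and 39625 CPM in Sd6 and 49019 and 46285 CPM in Sd7, and Prm1 from 78806 and 78174 through 109145 and 109212 to 130040 and 129497 CPM. None of the 5 was 2-fold apart from either neighbour. Their median log2 ratio to Sd5 was 0.43 in WT and 0.44 in KO, but 0.02 and -0.01 in UMIs per cell, where Sd5 cells were the deeper ones. Hils1, the linker histone of elongating spermatids, had its highest level in Sd6 in both libraries, with 4794 and 4525 CPM, against 4322 and 4389 CPM in Sd5 and 2688 and 2615 CPM in Sd7. H2al3, an H2A variant gene on the X chromosome, was also highest in Sd6, at 853 and 867 CPM, with 675 and 715 CPM in Sd5 and 777 and 818 CPM in Sd7. H3f3a, a gene of a replacement histone, was the 1 of 10 histone genes at least 2-fold lower than in Sd5, at 204 and 196 CPM in Sd5 and 76.3 and 62.4 CPM in Sd6. Of 24 chromatin regulators read against Sd5, Cbx3 was lower, with 29 and 27 UMIs in Sd6, and Cdyl was the 1 of 25 higher than in Sd7. Over all genes, 11.8% were lower than in Sd5 and 5.56% higher than in Sd7, so these counts do not set the histone and chromatin lists apart.

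The 59 genes held in Sd6 and lost by Sd7 were mixed in function. With Cdyl, Ybx1, Ybx3, Akap3 and Vdac3 they included the spermatid kinase Tssk1, at 638 and 568 CPM in Sd5, 623 and 583 CPM in Sd6 and 274 and 261 CPM in Sd7. Prss37, Prss51 and Prss52, serine protease relatives of the testis, were among them, Prss37 at 829 and 762 CPM in Sd5, 595 and 540 CPM in Sd6 and 152 and 135 CPM in Sd7. Fdft1, the squalene synthase of cholesterol synthesis, had 150 and 119 CPM in Sd6 and 29.4 and 30.3 CPM in Sd7. The ribosomal protein genes Rpl30, Rpl34 and Rps3a1 behaved in this way too, Rpl34 with 420 and 371 CPM in Sd6 and 133 and 175 CPM in Sd7. They were not typical of their family, whose median log2 ratio to Sd7 was -0.03 in WT and -0.02 in KO. Of 72 cytosolic ribosomal protein genes, 1 was 2-fold lower than in Sd5, beside 11.8% of all genes. Of 74, 5 were higher than in Sd7, near the 5.56% of all genes. The members of this class ranged widely in depth, and Htt for example rested on 9 and 7 UMIs in Sd6.

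The ratios of Sd6 to Sd7 were headed by Cst13, a cystatin gene of the testis (chromosome 2, 148820081 to 148830410, plus strand). It had 1676 and 1759 CPM in Sd5, 854 CPM in Sd6_WT (exact Poisson 95% interval 820 to 888) and 832 CPM in Sd6_KO (800 to 865), and 81.3 and 72.0 CPM in Sd7. This made it 10.5-fold and 11.5-fold higher in Sd6 than in Sd7, so that Cst13 told Sd6 from Sd7 more sharply than Cdyl did. Faiml, Cntn1, Ccer1, 1700095A21Rik, Actrt3, Dcdc2c, CT025686.2, Fbxo47 and Gm28269 were next in rank, each between 4.99-fold and 8.87-fold higher in Sd6 than in Sd7. Cntn1, a cell adhesion molecule best known from neurons, was at 176 and 172 CPM in Sd6 and 26.4 and 19.3 CPM in Sd7. Hemgn, the marker of Sd5, was among the 103 genes lost in steps, with 856 and 819 CPM in Sd5, 194 and 173 CPM in Sd6 and 44.5 and 53.0 CPM in Sd7. At the other end of the ranking Smarcc2, Taf6 and Gm45444 had the lowest ratios of Sd6 to Sd7, and none was 2-fold lower in both libraries, Smarcc2 at 13.5 and 13.5 CPM in Sd6 and 20.8 and 19.6 CPM in Sd7.

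Of the genes tied to 1 row, 0 with at least 100 UMIs over Sd5 and Sd6 in each library were 2-fold higher in Sd6 than in Sd5. Genes without a usable row were not compared. Among the genes with at least 100 UMIs the highest ratios were those of Rab5c, Nsun4, Fbxw5 and Nup98, and all stayed under 2-fold, Nsun4 with 25.6 and 27.1 CPM in Sd5 and 40.6 and 40.9 CPM in Sd6. Of the 14 genes past 2-fold, 11 had at most 31 UMIs in either library of Sd6. The other 3 were haemoglobin genes, Hba-a1, Hba-a2 and Hbb-bs, of which Hba-a1 and Hba-a2 are near-identical copies that could share reads. Of the 563 haemoglobin UMIs in Sd6_WT, 537 lay in 1 cell, and of 118 in Sd6_KO, 54 and 34 lay in 2 cells, which leaves 26 and 30 UMIs in all the others. With every cell of 10 or more haemoglobin UMIs left out, 11 genes were at least 2-fold higher than in Sd5.

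The genes highest in Sd6 formed a low crest. Among them beside Hils1 were the cystatin gene Cst8 and 1700074P13Rik. Cst8 was at 2009 and 2245 CPM in Sd5, 2430 and 2701 CPM in Sd6 and 2224 and 2450 CPM in Sd7. For 1700074P13Rik the Sd6 level of 2271 and 2400 CPM followed 1840 and 1972 CPM in Sd5 and preceded 1279 and 1348 CPM in Sd7, a log2 difference of 0.83 to Sd7 in each library. In UMIs per cell it was lower in Sd6 (16.2 and 16.2) than in Sd5 (17.4 and 18.1). Of the 78 genes with a known position, 8 (10.3%) were X-linked, against 97 of 4286 genes read (2.26%), 4.54% of those lower than in Sd5 and 4.62% of those higher than in Sd7. The 8 were Cylc1, H2al3, Cypt1, Cypt2, Cypt15, Gm15104, Gm4984 and Sh3kbp1, and 3 of them belong to 1 family. Lengths were taken from the longest protein-coding transcript of GENCODE vM21, which leaves out noncoding genes. This covered 65 of the 78 genes highest in Sd6 and 3673 of the 4286 genes read. Over the genes covered, the median length was 1826 bases for those highest in Sd6, 1954 for those lower than in Sd5, 1961 for those higher than in Sd7 and 2378 for all read. Full cAMP response elements, TGACGTCA, the motif bound by CREM, which reads the same on both strands, lay in the promoter window of 2 of 58 genes highest in Sd6 (3.45%), in 3.97% of all genes read and in 2.03% of all 27025 promoters of the RefSeq table.

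The Cypt genes, which encode cysteine-rich basic proteins of the perinuclear theca, were singled out after their values were seen. All 7 with a usable row share a stretch of bases near the start site, and they took different courses around Sd6. The sequences are shown because Cypt2 and Cypt4, with nearly the same promoter letters, differed in course. They are 117 bases each from RefSeq promoters of GRCm38.p6, 5′ to 3′ on the strand of the gene, for Cypt1 (chrX:16522750-16522866, plus strand), Cypt2 (chrX:105499649-105499765, plus strand), Cypt4 (chr9:24625073-24625189, plus strand) and Cypt12 (chr3:17948321-17948437, plus strand). Capitals mark a run of 17 bases, the longest that all 7 Cypt promoters hold. It begins 12 bases before the start site in Cypt4, where it crosses that site, and 19 or 23 bases before it in the others.
Cypt1: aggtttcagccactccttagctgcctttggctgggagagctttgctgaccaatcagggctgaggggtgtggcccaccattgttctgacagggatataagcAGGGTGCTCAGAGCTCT
Cypt2: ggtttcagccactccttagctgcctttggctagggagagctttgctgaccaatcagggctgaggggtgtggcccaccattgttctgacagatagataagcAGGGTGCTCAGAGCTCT
Cypt4: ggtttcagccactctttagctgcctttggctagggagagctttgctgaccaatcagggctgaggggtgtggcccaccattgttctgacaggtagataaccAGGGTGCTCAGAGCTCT
Cypt12: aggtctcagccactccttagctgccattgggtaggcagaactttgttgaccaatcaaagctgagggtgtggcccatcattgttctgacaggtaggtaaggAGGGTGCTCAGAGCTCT
The run was found in 7 of 27025 promoters of the table (0.0259%), the 7 Cypt genes. It was taken from these 7 promoters, so its presence in them was fixed in advance. Whether a run of 17 bases picked from other promoters would be as rare was not tested. Without gaps, Cypt2 and Cypt4 had 114 of 117 bases in common (97.4%), Cypt2 and Cypt3 113 (96.6%) and Cypt14 and Cypt15 116 (99.1%). Other pairs were less alike without gaps, Cypt1 and Cypt2 with 92 (78.6%) and Cypt4 and Cypt12 with 64 (54.7%).

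Cypt2 and Cypt4, close in these letters, differed in course. Cypt2 was at 410 and 457 CPM in Sd5, 552 and 584 CPM in Sd6 and 214 and 238 CPM in Sd7, highest in Sd6 in both libraries. Cypt4 peaked in Sd5 with 10334 and 10135 CPM, and had 3543 and 3501 CPM in Sd6 and 1338 and 1301 CPM in Sd7. Sd6 was thus the crest of Cypt2 and a step on the way down for Cypt4. Cypt1 (1734 and 1681, 2337 and 2102, then 1960 and 1976 CPM in Sd5, Sd6 and Sd7), Cypt12 and Cypt15 were also highest in Sd6. Cypt12 stayed nearly level from Sd5 (4601 and 4573 CPM) to Sd6 (4802 and 4673 CPM) and had 2461 and 2420 CPM in Sd7. Cypt15 was at 223 and 266 CPM in Sd5, 265 and 268 CPM in Sd6 and 97.4 and 101 CPM in Sd7. Neither Cypt12 nor Cypt15 was among the 23 genes above both neighbours beyond counting error in both libraries. Cypt3, at 1620 and 1470 CPM in Sd6, was still a little higher in Sd7 (1732 and 1601 CPM), as was Cypt14, whose WT and KO levels in Sd6 (58.6 and 41.6 CPM) rested on 169 and 126 UMIs. The transcripts of the family share sequence, from 0% of 50-base words for Cypt1 and Cypt12 to 14.2% for Cypt14, so reads could be split between members, most of all for Cypt14. Promoter likeness says nothing here about which factor binds.

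**Figure D3:**
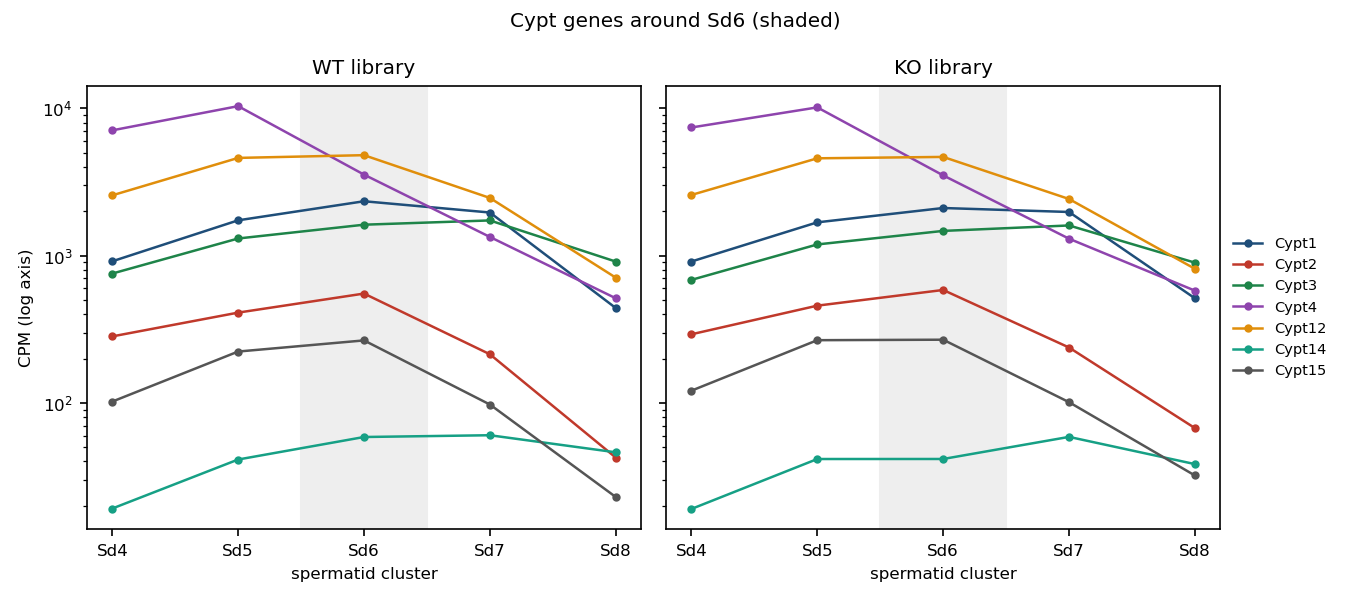
CPM on a log axis of the 7 Cypt genes in Sd4 to Sd8, one panel per library, with Sd6 shaded. Cypt4 drops from 10334 CPM in Sd5_WT to 3543 CPM in Sd6_WT while Cypt1, Cypt2 and Cypt3 still go up, and Cypt2 and Cypt15 drop only after Sd6.

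Cells of Sd6 also varied among themselves. The share of UMIs from the 5 transition protein and protamine genes had a median of 21.7% in Sd6_WT cells and 21.2% in Sd6_KO cells, and 96.3% and 96.2% of the cells lay between the medians of Sd5 (16.6% and 16.5%) and Sd7 (25.7% and 25%). When the cells of each library were put into 3 groups of nearly equal size by this share, median UMIs per cell went down with it, from 6772 through 5809 to 5012 in WT and from 6539.5 through 5582 to 4888 in KO. In CPM computed without the 5 genes, Cst13 went from 1326 through 1029 to 752 in WT and from 1264 through 979 to 829 in KO. Hemgn went from 298 to 193 and from 259 to 191 between the lowest and the highest group. Cdyl changed less, from 1143 through 1040 to 978 in WT and from 1142 through 1157 to 1032 in KO, whereas Smcp, a midpiece protein gene still rising in later clusters, went from 12613 to 15246 and from 13193 to 15384. Other genes differed between the libraries, Cypt2 going from 748 to 625 in WT and from 716 to 766 in KO, and Acrv1 from 38.3 to 13.6 in WT, but from 29.1 to 30.1 in KO, on at most 37 UMIs per group. These genes were chosen for the split after their values by cluster were known, and depth moved with the groups, so that its part in these differences was not tested.

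Among genes ranked by how far Sd6 stood above both neighbours, Ift43, Zpbp2, Il31 and Tuba3a held ranks 1, 2, 6 and 7. Ift43, a subunit of the flagellar transport complex, was at 21.2 CPM in Sd6_WT and 22.8 CPM in Sd6_KO, against 11 and 12.9 CPM in Sd5 and 11.9 and 11.9 CPM in Sd7, but at 405 and 337 CPM in Sd4. Zpbp2, an acrosomal zona-binding protein, was at 19.4 and 25.7 CPM in Sd6, 13.9 and 12.6 CPM in Sd5 and 10.9 and 15.6 CPM in Sd7, after 260 and 292 CPM in Sd4. Within Sd6, both lay mostly in the group of cells with the lowest transition protein and protamine share, which was also the deepest. From the lowest to the highest group, Ift43 had 40, 11 and 10 UMIs in WT and 44, 10 and 15 in KO. Zpbp2 had 42, 11 and 3 in WT and 51, 19 and 8 in KO. In CPM without the 5 genes, both were also highest in the lowest group. The part of depth was not tested, and Il31 and Tuba3a were not split in this way. Of the 313 UMIs of these 4 genes in Sd6_WT, 98 lay in 10 cells with 5 or more of them, and of 349 in Sd6_KO, 89 lay in 9 cells. The median depth of those cells was 10150.5 and 10865 UMIs, above the upper quartile of Sd6 (8222.25 and 7766.75). A pick by UMI count favours deep cells, so this depth is not particular to Sd6. Cells picked in the same way had medians of 14306 and 20996.5 UMIs in Sd5 and 11542 and 19463 in Sd7. No doublet caller was run. With the deepest 5% of cells left out per library and cluster, Ift43 was at 20.5 and 21.6 CPM and Tuba3a at 33.7 and 35.3 CPM in Sd6. Zpbp2 was then at 16 CPM in Sd6_WT, against 14 in Sd5_WT, and at 22.8 CPM in Sd6_KO, against 13.4 in Sd5_KO. Plpp1, Gm16159, Cypt2, 1700074P13Rik, Sbds, 1700003I22Rik, Fbxw5 and Gm48140 made up the rest of the 12 highest in this ranking, and of these Cypt2, 1700074P13Rik and Gm48140 were highest in Sd6 over all 13 clusters.

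The counts of the remaining lists are to be read against 11.8% of all genes lower than in Sd5 and 5.56% higher than in Sd7. Among 33 manchette, transport and LINC genes 1 was lower than in Sd5 (Sun3), and Kif2b and Katnal2 were higher than in Sd7. Among 14 sperm glycolysis genes the lactate carrier Slc16a7 was lost in steps, and the list's median ratio to Sd5 was 0.19 in WT and 0.20 in KO. Of 20 kinases and phosphatases 0 were lower and Tssk1 and Tssk4 were higher than in Sd7. Of 29 heat shock proteins and chaperonins 1 was lower, Dnajb13, and 2 were higher than in Sd7, Dnajb13 and Cct7. Of 11 ion channel and signalling genes 3 were lower, Catsper3, Lrrc52 and Efcab9, all parts of sperm channels or their regulators. Of 29 proteasome genes 4 were lower (Psmc5, Psmd6, Psmb6 and Psmd2) and 1 higher, Psma5 with 12 and 8 UMIs in Sd6. Of 20 meiotic genes Smc1b was lower than in Sd5. The 5 tubulins and the 6 mitochondrially encoded genes read had 0 past 2-fold either way. Of the 14 markers that the study or descriptions of its clusters name, Tex36 and Hemgn were lower than in Sd5, and Hemgn and Cdyl higher than in Sd7. Markers of other testis cells took few UMIs. The 4 Sertoli genes with a usable row summed to 56 and 9 UMIs in Sd6, the 3 Leydig genes to 13 and 38, the 3 myoid and vessel genes to 2 and 6, and the 6 macrophage and blood genes to 617 and 185, most of it haemoglobin. Of the Sertoli UMIs, 44 in WT and 5 in KO were of Ctsl, a protease gene that other cells also express.

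Within Sd6, the median log2 ratio of KO to WT over 4378 genes was 0.02, and the middle 50% of genes lay between -0.15 and 0.22. At least 2-fold higher in KO were 95 genes (2.17%) and at least 2-fold lower 90 (2.06%), most of them on few counts, for with at least 100 UMIs 4 of 2674 genes were higher and 4 lower. Smaller differences beyond counting error were more numerous, and they are not counted as changes since each genotype is 1 library. The 4 higher were 1700030C10Rik, Fyttd1, Supt20 and Catsper2. The noncoding 1700030C10Rik had 3 UMIs in Sd6_WT and 221 in Sd6_KO (1.04 and 73.0 CPM), with 82 and 2579 in the whole libraries, a log2 ratio in Sd6 of 5.92 with a counting interval of 4.57 to 8.42. Fyttd1 was at 11.1 and 24.8 CPM in WT and KO, Supt20 at 16 and 32.7 CPM, and Catsper2, a subunit of the sperm calcium channel, at 11.5 and 23.4 CPM. The 4 lower were Hba-a2, Hba-a1 and Hbb-bs, which rested on the 1 WT cell described above (without cells of 10 or more haemoglobin UMIs the blood list had a median log2 ratio of KO to WT of 0.22, against -2.21), and mt-Nd1, with 213 UMIs in WT and 99 in KO. With mitochondrial genes left out of the rankings, next were Lpgat1, Aff4, Ezh2 and Hoxc9 above and Actg1, Slc25a3, Sdhb, Gm1821 and Gm4758 below. All were under 2-fold, Aff4 at 39.9 and 77.9 CPM and Sdhb at 48.6 and 28.4 CPM. The mitochondrially encoded genes of the list summed to 252 CPM in Sd6_WT and 155 CPM in Sd6_KO. The deposited percent of all mitochondrial UMIs per cell went the other way, with medians of 0.184 in Sd6_WT and 0.268 in Sd6_KO. This median was higher in KO than in WT in every cluster. Since each genotype is 1 library, a difference between genotypes and one between these libraries cannot be told apart.

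Among the smaller differences, 4 at abundant genes are described, each in the same direction in Sd5 and Sd7. Psme4, the proteasome activator that acts on histones during their removal, was at 433 CPM in Sd6_WT (exact Poisson 95% interval 410 to 458) and 611 CPM in Sd6_KO (584 to 640), with 369 and 494 CPM in Sd5 and 437 and 644 CPM in Sd7. Phf7, a ubiquitin ligase for histone H2A, was at 1637 and 2137 CPM in Sd6, 1251 and 1640 CPM in Sd5 and 1756 and 2429 CPM in Sd7. Akap4 of the fibrous sheath was at 956 and 1190 CPM in Sd6, 745 and 942 CPM in Sd5 and 1152 and 1393 CPM in Sd7. Gpx4, the selenoprotein of the midpiece, was lower in KO, at 1188 and 819 CPM, a log2 ratio of -0.54 (-0.61 to -0.46). It was lower in KO also in Sd5 (915 and 691 CPM) and Sd7 (1351 and 974 CPM). These 4 were named after their values were seen. Their shared direction is no replicate check, because the cells of Sd5 and Sd7 come from the same libraries as those of Sd6. The level of Cdyl differed by 0.07 on the log2 scale (-0.01 to 0.15). By list, the median log2 KO to WT ratio lay between -0.20 and 0.24 for the lists with at least 10 genes read in Sd6. It was lowest for histone genes and highest for axoneme genes. Of 61 axoneme genes, 2 were at least 2-fold higher (Dnah12 and Dnal1), beside 2.17% of all genes. Each of the 2 had fewer than 100 UMIs in Sd6.

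**Figure D4:**
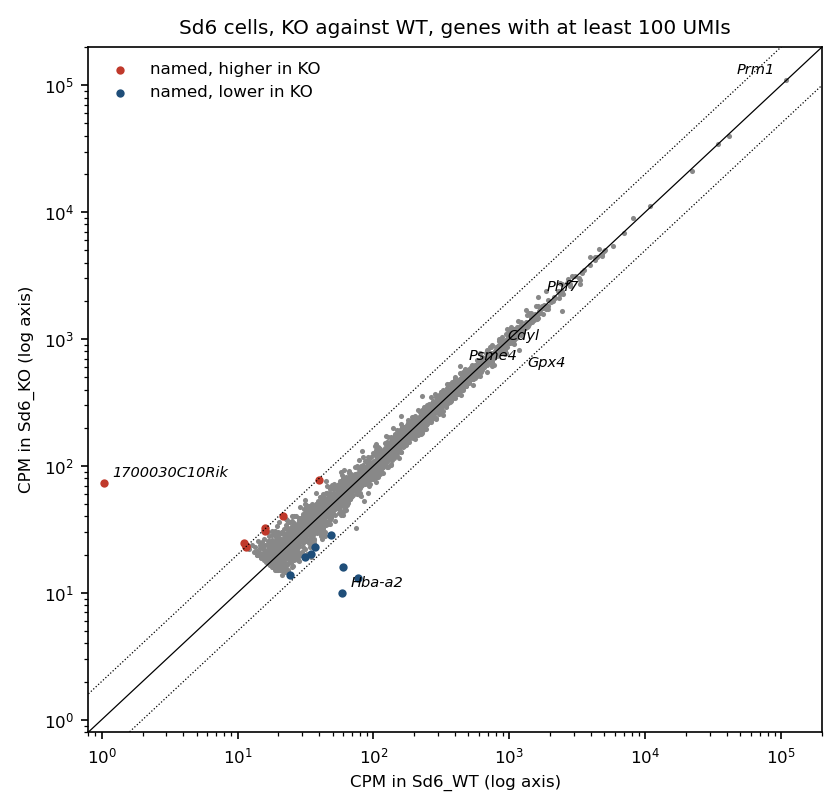
CPM in Sd6_WT (x axis) against CPM in Sd6_KO (y axis), both on log axes, for genes with at least 100 UMIs in the Sd6 cells, with coloured points for the 8 genes with the highest and the 8 with the lowest ratios (mitochondrial genes not ranked), a solid line at equal levels and dotted lines at 2-fold. Nearly all points lie along the diagonal, 1700030C10Rik lies far above it at 1.04 and 73.0 CPM, and Hba-a2 far below.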

How the data were processed

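Testis cells of both genotypes were captured with the Singleron GEXSCOPE single-cell RNA kit, 1 library for each of 2 genotypes. Per the submitters' processing notes and the methods of the study, the authors used FastQC 0.11.7, fastp 1, STAR 2.5.3a, featureCounts 1.6.2 and Seurat 3.2.3, and aligned reads to the mouse build mm10. The limits of their cell filter are not given in the sources used here. The authors deposited raw UMI counts, 26758 rows by 12408 cells, and a cell table with library, cluster, UMIs, genes and the percent of mitochondrial UMIs, which the authors computed per cell. No further filter on cells was applied, no doublet caller was run, and clusters are those of the authors.

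The deposited gene list has 25065 symbols for 26758 rows, so some rows carry no symbol. The 30 mitochondrial symbols were matched to rows by the deposited percent in 12408 of 12408 cells, against 662 cells when the line number was taken as the row. Between these anchors a symbol was used only if it had 1 possible row, on the assumption that unnamed rows are those read in fewer than 5 cells. This left 5476 symbols, with 87.1% of all WT and 86.7% of all KO UMIs. The other genes were not analysed here.

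UMIs were summed per cluster and library and scaled to CPM. Log2 ratios used a prior of 1 UMI. A gene needed 10 UMIs over the groups compared, and was counted as higher or lower at a 2-fold limit, in both libraries for clusters. Intervals are exact 95% Poisson, binomial or conditional binomial intervals and cover counting error only, and the floor for a count of 0 is 3 counts. With 1 library per genotype no test was run and no replicate spread can be given. Genes named were those of the lists, the 12 farthest above both neighbours with 50 UMIs, the 10 at each end of each neighbour comparison and the 8 at each end of KO against WT with 100 UMIs, the 10 with most UMIs, and the markers named by the study or descriptions of its clusters. Mitochondrial genes were left out of these ranks, except that of most UMIs. Other genes are said to be chosen after their values were seen or belong to a class or count given in full or by example. The cells, gene lists and comparisons were chosen with earlier results of these data known. The steps were tested on simulated data. Coordinates and transcripts are from GENCODE vM21 (GRCm38) and promoters from RefSeq GRCm38.p6. Python 3.11.15, numpy 2.4.6, pandas 2.3.3 and scipy 1.17.1 were used. The alternatives tried changed the low-count limit, the prior, the summary over cells, the totals, the depth per cell, the deepest cells, the match of symbols to rows, and the centring.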

Additional observations from a re-analysis of the deposited data

Results flagged for a closer look

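A pair of genes moved opposite ways in the libraries by more than counting error in each. AC101921.1 had a log2 ratio of Sd6 to Sd5 of -0.26 in WT and 0.19 in KO, with 140 and 200 CPM in Sd6. Rogdi had a log2 ratio of Sd6 to Sd7 of 0.23 in WT and -0.18 in KO, with 161 and 128 CPM in Sd6. With 1 library per genotype neither difference between the libraries was tested.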

How the results depend on the processing

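The main counts were 514 genes lower and 14 higher in Sd6 than in Sd5, 242 higher and 3 lower than in Sd7, 79 highest in Sd6, and 95 higher and 90 lower in KO than in WT. The small counts and those of KO against WT rested on genes with few UMIs. A limit of 50 UMIs left 1 gene higher than in Sd5, 0 lower than in Sd7, and 9 higher and 9 lower in KO, whereas no limit gave 54, 60, 308 and 330, and a prior of 10 UMIs gave 3, 0, 26 and 29. The number higher than in Sd5 was 8 with cells thinned to 3000 UMIs and 7 without the deepest 5% of cells. Allowing any row to be unnamed leaves 2648 symbols, so that fewer genes were compared: 9 were then higher and 273 lower than in Sd5, 130 higher and 0 lower than in Sd7, and 42 higher and 46 lower in KO. Centring gave 158 higher and 6 lower than in Sd7. Under the remaining alternatives these counts stayed within 1.5 times the main ones. Under 3 settings chosen after seeing the data, Cdyl stood at 1068 CPM in WT and 1116 CPM in KO with transition protein and protamine genes left out of the totals, UMIs per cell gave 2 genes highest in Sd6, 3 higher and 949 lower than in Sd5, and leaving out cells with 10 or more haemoglobin UMIs turned the median log2 ratio of the blood list from 2.17 to -0.11 for Sd6 to Sd7 in KO and from -2.21 to 0.22 for KO to WT, since those cells held most of these UMIs. The median of the deadenylation factors for Sd6 to Sd7 in WT went from 0.72 to -0.25 with any row allowed to be unnamed. Of 1621 list medians under 12 alternatives, 957 moved by less than the counting error of the list's summed UMIs and 661 by more, and the 3 given above, which had been at least 1.5-fold from no difference, changed sign. Where not said, the cause was not tested. No paired analysis was possible because the labels carry no replicate numbers and each genotype is 1 library. Ratios that rest on few UMIs in Sd6, as for Nup43 and 1700030C10Rik, are imprecise in size, and the spread between mice is unknown.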
